A study of Mus musculus with 12 samples.

Results

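The genes described here are 38 genes of the endoplasmic reticulum (ER) protein-folding machinery: 3 sensors of unfolded protein, 17 chaperones and disulfide isomerases with their oxidases, 9 genes of ER-associated degradation and 9 genes of the channel that carries proteins into the ER. They were chosen by symbol, and each symbol was matched to 1 Ensembl gene of the count table, so that 38 of its 55536 features are members. RNA was sequenced from splenic B cell cultures of 3 control and 3 Pdap1-deficient mice. The labels give the control genotype as Cd19Cre/+ and that of the Pdap1-deficient mice as PDAP1 KO, which the series design writes as Pdap1F/FCd19Cre/+. All mice are on a C57BL/6 background and all carry 1 Cd19Cre allele, which expresses the Cre recombinase in B lineage cells, so floxed Pdap1 is deleted in B cells of the latter mice and retained in other cells. Cells of every mouse were cultured for 48 h in 2 ways: with LPS and IL-4 (LPS-IL-4), under which B cells switch to IgG1, and with LPS, BAFF and TGFβ (LPS-BAFF-TGFβ), under which they switch to IgG2b. This gives 12 libraries in 4 groups of 3. The labels give no age for these mice, and the methods state for the study as a whole that mice of both sexes and of a wide range of adult ages were used in groups matched for age. The labels also name the CH12 B cell line, whereas the methods of the study and the series design describe primary splenocytes of individual mice, which is followed here. The question put to these genes was whether they change with loss of Pdap1, in which Atf4 rises, and with the stimulation.

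Proteins bound for secretion or the cell surface enter the ER through the Sec61 channel, are folded there by chaperones and oxidised by disulfide isomerases, and are returned to the cytosol for destruction when they fail to fold. Unfolded protein is sensed by 3 kinds of membrane protein. Ire1 (encoded by Ern1) splices the mRNA of the transcription factor Xbp1, Atf6 and its relative Atf6b release a transcription factor by cleavage, and Perk (Eif2ak3) phosphorylates the translation factor eIF2α. Atf4 is a transcription factor translated when eIF2α is phosphorylated, by Perk or by kinases that sense other stresses, and B cells that turn into antibody-secreting cells are known for expanding their ER through Xbp1.

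Total counts ran from 9386667 to 15869143 with LPS-IL-4 and from 4579793 to 8303482 in 5 libraries with LPS-BAFF-TGFβ. The sixth, of control mouse 1, held 69500640 counts and stood apart in composition, with 2.54% of its counts in coding genes shorter than 1000 bases against 0.892% to 1.39% elsewhere. Both libraries of Pdap1-deficient mouse 2 stood apart in markers of myeloid cells (8 genes, among them Lyz2, Csf1r and Cd14), which summed to 327 CPM (counts per 1000000 counts of the library) with LPS-IL-4 and 568 CPM with LPS-BAFF-TGFβ. The same sum was 39.6 and 83.9 CPM in Pdap1-deficient mouse 3 and at most 29.0 CPM in the other libraries, and none of the 4 myeloid markers tested passed the test between genotypes, at median log2 fold changes of 3.16 and 2.47. All 8 B cell markers had counts in every group and summed to between 3791 and 5623 CPM, whereas 8 T cell markers summed to at most 25.4 CPM, 5 NK cell markers to at most 2.61 CPM and 6 erythroid markers to at most 23.7 CPM. In such bulk RNA, fewer cells of a type and less RNA per cell cannot be told apart. Pdap1 itself was 93.0, 91.4 and 97.8 CPM in control and 23.3, 27.2 and 29.9 CPM in Pdap1-deficient cells with LPS-IL-4, and 199, 80.3 and 100.3 CPM and 26.4, 26.0 and 23.0 CPM with LPS-BAFF-TGFβ. The genotypes did not overlap, at log2 fold changes of -1.82 (SE 0.11, adjusted p = 3.52e-05) and -2.33 (SE 0.36, adjusted p = 0.0929), and the second missed the threshold.

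Values are CPM on TMM-scaled totals of all 12 libraries, listed in the order of mouse 1, 2 and 3. A gene is called where edgeR's quasi-likelihood test gave an adjusted p (Benjamini-Hochberg over all genes tested) under 0.05, and log2 fold changes are given with their standard error (SE). For a single gene and 3 mice a group, the smallest two-sided p of an exact permutation test is 0.1, so every adjusted p is from the fit across genes. All 38 members passed the filter on low counts in every comparison, and the lowest count of a member in any library was 21.

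Few of these genes were called between Pdap1-deficient and control cells. With LPS-IL-4, 3 of 38 members were higher in Pdap1-deficient cells (Ern1, Dnajb9 and Ero1lb) and 1 was lower (Sdf2l1), against 2.79% of all genes tested called higher and 2.12% called lower. The median log2 fold change was 0.02 over the members and 0.02 over all 15074 genes tested. With LPS-BAFF-TGFβ none of the 38 members was called, against 0.455% of 14079 genes higher and 0.0071% lower, and the medians were -0.05 over the members and 0.01 over all genes. An unadjusted p under 0.05 was reached by 12 members in the former comparison, beside 3582 of all 15074 genes tested. In the latter it was reached by 8 members, beside 1486 of 14079 genes. DESeq2's Wald test called 5 members higher (Dnajb9, Edem1, Ern1, Ero1lb and Herpud1) and 1 lower (Sdf2l1) with LPS-IL-4. With LPS-BAFF-TGFβ it called 1 member higher (Herpud1) and 1 lower (Sdf2l1). The shares of all genes above are those of edgeR. Those of DESeq2's Wald test are not given here, so its calls have no share beside them. Members whose groups did not overlap numbered 10 higher and 9 lower of 38 with LPS-IL-4 (15.5% and 16.1% of all genes tested), and 4 higher and 7 lower under LPS-BAFF-TGFβ (9.55% and 9.08%).

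Whether these few genes passed the test depended on the libraries included, while their values moved less. With LPS-IL-4, no member was called without control mouse 1, without control mouse 2, without control mouse 3 or without Pdap1-deficient mouse 3. Calls over all genes in those fits are not given here, so the loss is not shown to be particular to the members. Over all alternatives the log2 fold change stayed between 0.45 and 0.59 for Ern1, between 0.41 and 0.63 for Dnajb9, between 0.41 and 0.65 for Ero1lb and between -0.76 and -0.54 for Sdf2l1. Without Pdap1-deficient mouse 2, the library with myeloid markers, calls over all genes rose from 421 higher and 320 lower of 15074 to 775 higher and 684 lower of 15226. In that fit 11 members were called: Sdf2l1 was lower, and Atf6, Derl1, Dnajb9, Edem1, Edem3, Ern1, Ero1lb, Herpud1, Pdia4 and Sel1l were higher. With LPS-BAFF-TGFβ, leaving out the deep library of control mouse 1 gave 2 calls, Herpud1 higher and Sdf2l1 lower, and leaving out any other library gave none. Over all genes the fit without that library called 105 of 14585 higher and 11 lower. Some markers of plasmablasts, the antibody-secreting descendants of B cells, also differed with genotype in LPS-IL-4, in both directions. The 12 markers summed to between 554 and 603 CPM in control and between 675 and 788 CPM in Pdap1-deficient cells, and to between 517 and 567 CPM in both genotypes with LPS-BAFF-TGFβ. The largest part of the sum with LPS-IL-4 was Irf4, which was not called (309, 287 and 294 CPM in control and 379, 322 and 400 CPM in Pdap1-deficient cells). Of the 10 tested with LPS-IL-4, 6 had values above 0 and 4 below. Prdm1 (the regulator of the secretory programme, log2 fold change 1.82), Ell2 (0.48) and Fam46c (0.82) were called higher and Slamf7 (-0.48) lower. Sdc1, the gene of CD138, was not called but was lower in every Pdap1-deficient culture (6.42, 8.99 and 9.90 CPM in control and 5.84, 3.95 and 5.29 CPM in Pdap1-deficient cells). All 12 markers had counts in every group, and none of the 9 tested with LPS-BAFF-TGFβ was called. The study reported no significant genotype difference in the share of plasmablasts at a later time of culture. It also saw no apparent change of their gene signature in its RNA sequencing. The part of myeloid cells, plasmablasts and depth in these differences was not tested.

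**Figure D1:**
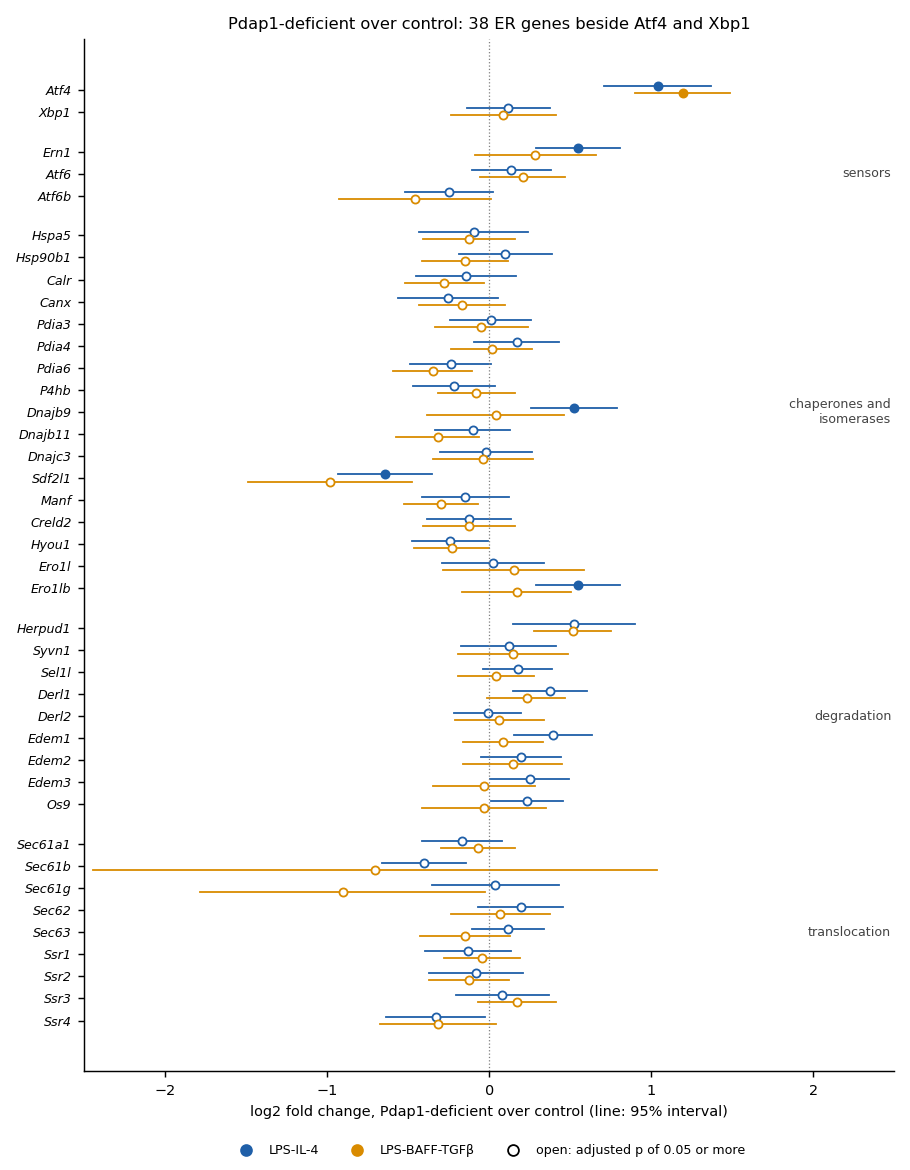
Log2 fold change of Pdap1-deficient over control cells (horizontal axis, with 95% intervals) for Atf4, Xbp1 and the 38 ER genes (rows, by group) with LPS-IL-4 (blue) and LPS-BAFF-TGFβ (orange). Filled points passed edgeR's quasi-likelihood test (adjusted p under 0.05); Atf4 lies at 1.04 and 1.19, and every ER gene lies to its left, most of them around 0.

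The stimulations differed in more of these genes than the genotypes did, and nearly all differences that passed the test were towards higher levels with LPS-IL-4. In control cells 19 of 38 members were higher with LPS-IL-4 and 1 was lower, against 9.33% of 14882 genes tested higher and 9.99% lower. In Pdap1-deficient cells 22 members were higher and none was lower, against 5.89% of 14617 genes higher and 5.57% lower. The median log2 fold change of the members was 0.35 in control and 0.47 in Pdap1-deficient cells, and that of all genes tested was -0.03 and 0.00. The higher members shared between the genotypes, which rest on different libraries, were 17 of 19 and 17 of 22. The matching overlap over all genes called higher is not given here, so this count is a description. With the mouse as a block, since both cultures of a mouse come from the same animal, 15 members were higher and 1 lower in control cells, and 29 were higher and 1 lower in Pdap1-deficient cells. The block moved the calls over all genes to 949 higher and 1040 lower in control and 1976 higher and 1878 lower in Pdap1-deficient cells. Without 1 library each, between 15 and 23 members were called in control cells (23 without the deep library of mouse 1). In Pdap1-deficient cells the count fell to 13 without the LPS-IL-4 library of mouse 3, to 11 without the LPS-BAFF-TGFβ library of mouse 1 and to 13 without that of mouse 3, and it was 27 without the LPS-IL-4 library of mouse 2. Called higher in each of the 6 fits without 1 library were 15 members in control cells (Creld2, Derl1, Dnajb11, Ero1lb, Hsp90b1, Hspa5, Hyou1, Manf, P4hb, Pdia3, Pdia4, Pdia6, Sec61a1, Ssr1 and Ssr3) and 11 in Pdap1-deficient cells (Creld2, Derl1, Dnajb11, Ero1lb, Hsp90b1, Hyou1, Manf, Pdia4, Pdia6, Sdf2l1 and Sec61a1). Calls over all genes in these fits without 1 library are not given here. Markers of B cells and plasmablasts moved with the stimulation as well. The B cell markers summed to between 3863 and 4076 CPM with LPS-BAFF-TGFβ and between 5125 and 5438 CPM with LPS-IL-4 in control cells. In Pdap1-deficient cells the sum was between 3791 and 4168 CPM and between 5159 and 5623 CPM. Of the 8 markers, 4 were called higher with LPS-IL-4 in both genotypes (Cd79b, Cd22, Ms4a1 and Cd74), 3 had values below 0 in each genotype, and of those Blnk was called lower in control cells (log2 fold change -0.42). Of 10 plasmablast markers tested, 5 were called higher with LPS-IL-4 in control cells (Slamf7 1.13, Sdc1 2.02, Prdm1 1.11, Fkbp11 1.82 and Jchain 1.67) and Irf4 lower (-0.35). In Pdap1-deficient cells 4 of 10 were called higher (Prdm1 2.68, Slamf7 1.12, Ell2 0.59 and Fkbp11 2.63) and none lower. Their part in the ER gene differences was not tested.

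**Figure D2:**
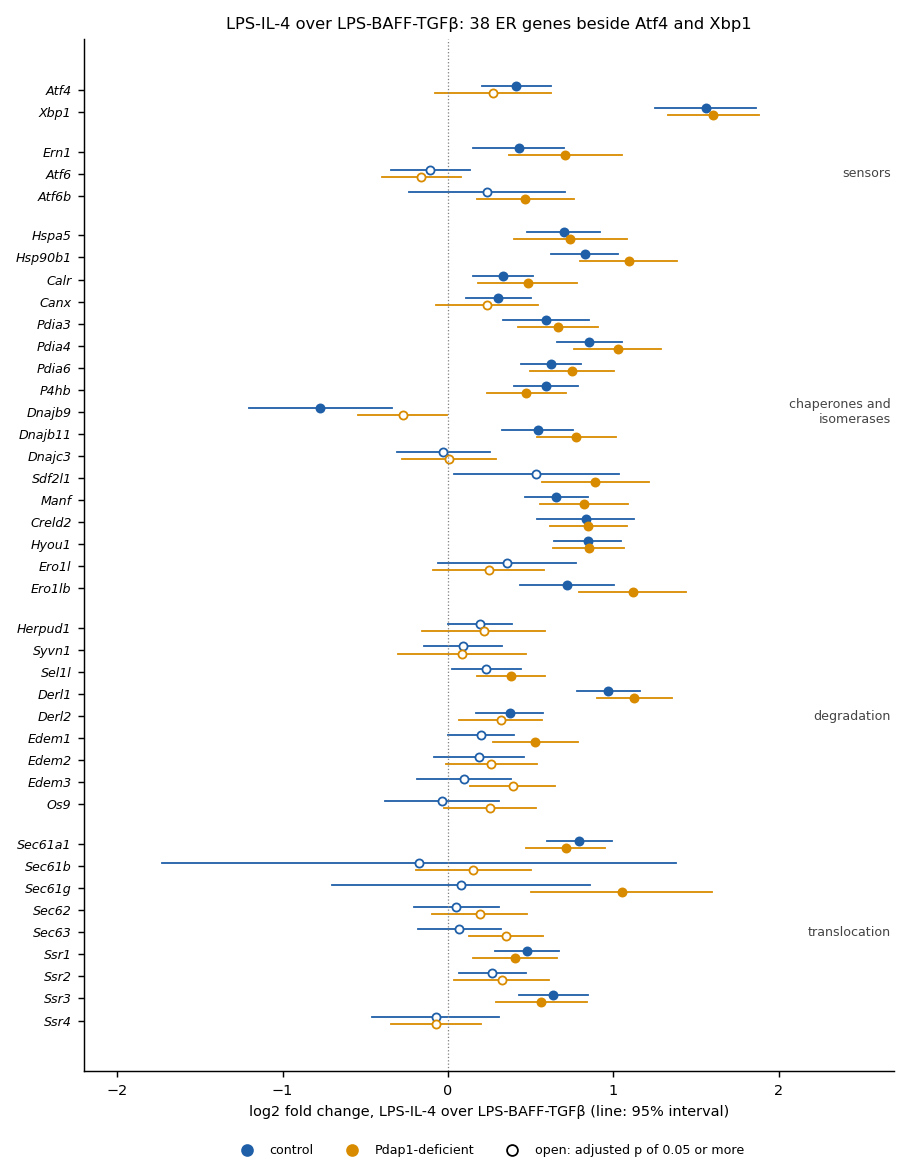
Log2 fold change of LPS-IL-4 over LPS-BAFF-TGFβ cultures (horizontal axis, with 95% intervals) for Atf4, Xbp1 and the 38 ER genes (rows, by group) in control (blue) and Pdap1-deficient cells (orange). Filled points passed edgeR's quasi-likelihood test (adjusted p under 0.05); Xbp1 lies at 1.56 and 1.60, the chaperones mostly between 0.3 and 1.1, and Dnajb9 to the left of 0.

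Atf4 (ENSMUSG00000042406, chr15:80255184-80257541, plus strand, GRCm38) was 274, 282 and 295 CPM in control and 692, 464 and 602 CPM in Pdap1-deficient cells with LPS-IL-4, and 232, 209 and 197 CPM and 545, 418 and 489 CPM with LPS-BAFF-TGFβ. Every Pdap1-deficient culture was above every control culture. The log2 fold change was 1.04 (SE 0.15, adjusted p = 0.00561) under LPS-IL-4 and 1.19 (SE 0.13, adjusted p = 0.0039) under LPS-BAFF-TGFβ. Xbp1, the transcription factor whose mRNA Ire1 splices, was 317, 301 and 321 CPM in control and 324, 309 and 392 CPM in Pdap1-deficient cells with LPS-IL-4, and 87.2, 122 and 109.7 CPM and 104, 120.2 and 113 CPM with LPS-BAFF-TGFβ. It was higher with LPS-IL-4 in both genotypes: LPS-IL-4 over LPS-BAFF-TGFβ was 1.56 (SE 0.13, adjusted p = 0.000109) in control and 1.60 (SE 0.12, adjusted p = 3.95e-05) in Pdap1-deficient cells. Pdap1-deficient over control was 0.12 (SE 0.12, adjusted p = 0.578) and 0.09 (SE 0.14, adjusted p = 0.834), which did not pass the test. The counts are per gene and do not separate spliced from unspliced Xbp1 mRNA. By RT-PCR of LPS-IL-4 cultures at 48 h, the study saw no genotype difference in Xbp1 splicing.

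Of the sensors, Ern1 was the one called between genotypes, in LPS-IL-4 cultures. Ern1 (ENSMUSG00000020715, chr11:106394650-106487852, minus strand, GRCm38), the gene of Ire1, was 21.7, 20.9 and 22.6 CPM in control and 29.6, 36.5 and 29.8 CPM in Pdap1-deficient cells with LPS-IL-4, and 15.2, 16.4 and 16.9 CPM and 20.6, 21.5 and 16.6 CPM with LPS-BAFF-TGFβ. With LPS-IL-4 every Pdap1-deficient culture was above every control culture, and the log2 fold change of 0.55 (SE 0.12, adjusted p = 0.0297) passed the test, whereas with LPS-BAFF-TGFβ the groups overlapped and it was 0.28 (SE 0.17, adjusted p = 0.544). Ern1 was also higher under LPS-IL-4, by 0.43 (SE 0.12, adjusted p = 0.0394) in control and 0.71 (SE 0.15, adjusted p = 0.0148) in Pdap1-deficient cells, and in control cells the call was lost with the mouse as a block (log2 fold change 0.43). Atf6, which passes to the Golgi under stress and is cut there, was 155, 146 and 150.3 CPM in control and 178, 146 and 176 CPM in Pdap1-deficient cells with LPS-IL-4, and 145, 159.6 and 181 CPM and 190.0, 184 and 182 CPM with LPS-BAFF-TGFβ. No comparison of Atf6 passed the test, with log2 fold changes of 0.14 and 0.21 for Pdap1 loss and -0.11 and -0.16 for the stimulation. Atf6b, its relative, was 34.3, 35.2 and 42.1 CPM in control and 33.1, 33.6 and 28.0 CPM in Pdap1-deficient cells with LPS-IL-4, and 42.3, 24.1 and 27.5 CPM and 23.7, 23.5 and 21.2 CPM with LPS-BAFF-TGFβ. It was the one sensor below control in every Pdap1-deficient culture of both stimulations, at -0.25 (SE 0.12, adjusted p = 0.249) and -0.46 (SE 0.21, adjusted p = 0.48), which did not pass the test. The second value rested in part on the deep library, without which it was -0.18. Atf6b was higher with LPS-IL-4 in Pdap1-deficient cells, by 0.47 (SE 0.13, adjusted p = 0.0464). In control cells the value was 0.23 (SE 0.20, adjusted p = 0.484), and 0.52 (adjusted p = 0.00316) without the deep library; its adjusted p there ran over the alternatives from 0.00316 to 0.81.

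**Figure D3:**
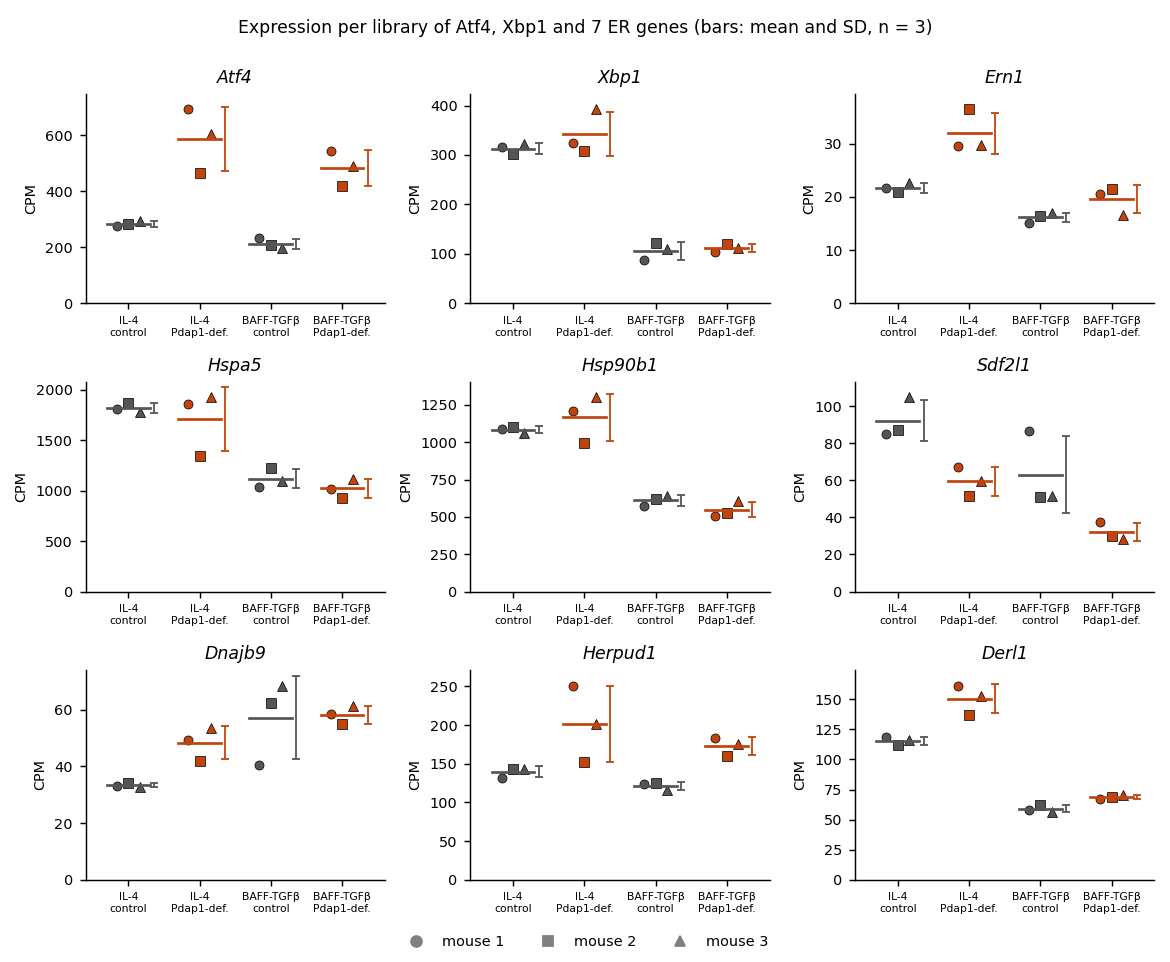
CPM (vertical axes, from 0) of Atf4, Xbp1 and 7 ER genes in the 12 libraries, by group, with 1 symbol per mouse number; horizontal bars give the mean and vertical bars the SD of 3 libraries. Atf4 is separated by genotype, Xbp1, Hspa5, Hsp90b1 and Derl1 by stimulation, and Sdf2l1 is lower and Herpud1 higher in the Pdap1-deficient cultures of both stimulations.

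The chaperones and disulfide isomerases were the largest group and took most of the members' counts. Their CPM summed to 9411, 9421 and 9357 in control and 9474, 7620 and 9685 in Pdap1-deficient cells with LPS-IL-4, and to 6136, 6632 and 6428 and to 5642, 5407 and 6070 with LPS-BAFF-TGFβ. All LPS-IL-4 libraries were above all LPS-BAFF-TGFβ libraries, by a ratio of the group means of 1.47 in control and 1.56 in Pdap1-deficient cells. Between genotypes the ratio of means was 0.950 in LPS-IL-4 cultures, where the library of Pdap1-deficient mouse 2 was lowest, and 0.892 in the others. With LPS-BAFF-TGFβ every Pdap1-deficient sum was below every control sum. Without overlap between genotypes, 2 of the 17 genes were higher and 5 lower with LPS-IL-4, and 0 higher and 6 lower with LPS-BAFF-TGFβ. Over all genes tested the shares were 15.5% and 16.1%, and 9.55% and 9.08%. Hyou1, Pdia6 and Sdf2l1 were lower in every Pdap1-deficient culture of both stimulations. Of the 17 genes, 13 were higher with LPS-IL-4 in control cells and 1 was lower (median log2 0.59), and 13 were higher in Pdap1-deficient cells and none was lower (median 0.75). Pdap1 loss gave 2 higher and 1 lower with LPS-IL-4 (median -0.10) and no call with LPS-BAFF-TGFβ (median -0.12). Over all genes tested, LPS-IL-4 gave 9.33% higher and 9.99% lower in control, and 5.89% and 5.57% in Pdap1-deficient cells. For Pdap1 loss the all-gene shares were 2.79% higher and 2.12% lower with LPS-IL-4, and 0.455% and 0.0071% with LPS-BAFF-TGFβ. Calr and Hspa5 had the highest levels per length of exon, at 374 and 335 CPM per kilobase averaged over the 12 libraries.

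Hspa5 (BiP), the Hsp70 chaperone that binds unfolded chains and holds the sensors inactive, was 1811, 1870.4 and 1779 CPM in control and 1858, 1348 and 1924 CPM in Pdap1-deficient cells with LPS-IL-4, and 1040.4, 1222 and 1095 CPM and 1019.6, 927 and 1119 CPM with LPS-BAFF-TGFβ. It separated the stimulations without overlap and overlapped between genotypes. LPS-IL-4 over LPS-BAFF-TGFβ was 0.70 (SE 0.10, adjusted p = 0.00143) in control and 0.74 (SE 0.15, adjusted p = 0.0117) in Pdap1-deficient cells, while Pdap1 loss gave -0.10 (SE 0.15, adjusted p = 0.74) and -0.12 (SE 0.12, adjusted p = 0.717). Without the LPS-IL-4 library of Pdap1-deficient mouse 2, the lowest of its stimulation, the former was 0.06 (SE 0.06). Hsp90b1 (GRP94), the Hsp90 of the ER, was 1090.0, 1104 and 1059 CPM in control and 1209, 995 and 1300.2 CPM in Pdap1-deficient cells with LPS-IL-4, and 572, 617 and 643 CPM and 508, 529 and 605 CPM with LPS-BAFF-TGFβ. Its stimulation difference was among the larger ones, at 0.83 (SE 0.09, adjusted p = 0.000363) in control and 1.09 (SE 0.13, adjusted p = 0.000608) in Pdap1-deficient cells, and Pdap1 loss gave 0.10 and -0.15, neither called.

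Calr and Canx encode calreticulin and calnexin, the lectin chaperones that hold glycoproteins. Calr was 1263, 1275 and 1314 CPM in control and 1284, 955 and 1264 CPM in Pdap1-deficient cells with LPS-IL-4, and 1041, 976 and 1035 CPM and 852, 788 and 864 CPM with LPS-BAFF-TGFβ. Canx was 1459.6, 1453 and 1379.6 CPM in control and 1320.2, 989 and 1311 CPM in Pdap1-deficient cells with LPS-IL-4, and 1146, 1219.8 and 1103 CPM and 1029, 936 and 1105 CPM with LPS-BAFF-TGFβ. Their stimulation differences were 0.33 (SE 0.08, adjusted p = 0.0216) for Calr and 0.30 (SE 0.09, adjusted p = 0.0401) for Canx in control cells, and in Pdap1-deficient cells 0.48 (SE 0.13, adjusted p = 0.0456) for Calr and 0.24 (SE 0.14, adjusted p = 0.357) for Canx, where that of Canx did not pass. With the mouse as a block neither was called in control cells and both were called in Pdap1-deficient cells. Pdap1 loss gave values of -0.14 and -0.28 for Calr and -0.25 and -0.17 for Canx, none of them called.

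The disulfide isomerases Pdia3, which works with calreticulin and calnexin, Pdia4, Pdia6 and P4hb form and rearrange disulfide bonds. Pdia3 was 732, 704 and 679 CPM in control and 714, 655 and 772 CPM in Pdap1-deficient cells with LPS-IL-4, and 400.4, 486 and 512 CPM and 427, 436 and 482 CPM with LPS-BAFF-TGFβ. Pdia4 was 528, 506 and 536 CPM in control and 614, 517 and 644 CPM in Pdap1-deficient cells with LPS-IL-4, and 274, 302 and 289 CPM and 294, 265 and 309.6 CPM with LPS-BAFF-TGFβ. Both were higher in every LPS-IL-4 library than in every LPS-BAFF-TGFβ library, by 0.59 (SE 0.11, adjusted p = 0.0075) and 0.86 (SE 0.09, adjusted p = 0.000255) in control cells and 0.67 (SE 0.11, adjusted p = 0.0035) and 1.03 (SE 0.12, adjusted p = 0.00046) in Pdap1-deficient cells. Pdia6 was 516, 525 and 536 CPM in control and 479, 396 and 468 CPM in Pdap1-deficient cells with LPS-IL-4, and 331, 346 and 344 CPM and 249, 261 and 288 CPM with LPS-BAFF-TGFβ. P4hb was 469, 474 and 465 CPM in control and 445, 361 and 414 CPM in Pdap1-deficient cells with LPS-IL-4, and 294, 326 and 311 CPM and 289, 298 and 289 CPM with LPS-BAFF-TGFβ. The stimulation differences were 0.62 (SE 0.08, adjusted p = 0.000983) and 0.59 (SE 0.08, adjusted p = 0.00179) in control cells and 0.75 (SE 0.11, adjusted p = 0.00233) and 0.47 (SE 0.11, adjusted p = 0.019) in Pdap1-deficient cells. For Pdap1 loss the 4 isomerases gave log2 fold changes between -0.35 and 0.17, and none was called in either stimulation.

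The J-domain proteins and BiP partners differed among themselves. Dnajb9 (ERdj4; ENSMUSG00000014905, chr12:44205559-44210326, minus strand, GRCm38), which brings substrates and Ire1 to BiP, was 33.2, 34.1 and 32.8 CPM in control and 49.2, 42.1 and 53.7 CPM in Pdap1-deficient cells with LPS-IL-4, and 40.6, 62.4 and 68.6 CPM and 58.5, 54.9 and 61.2 CPM with LPS-BAFF-TGFβ. It was the one member called lower with LPS-IL-4 (6 members had values below 0 in control and 3 in Pdap1-deficient cells, among them Atf6 and Ssr4 in both): in control cells it was lower with a log2 fold change of -0.77 (SE 0.19, adjusted p = 0.0236), and in Pdap1-deficient cells the value was -0.27 (SE 0.12, adjusted p = 0.206) and was called lower with the mouse as a block (log2 fold change -0.27). The call in control cells was lost without any 1 of the libraries other than the deep one, and was kept without that one, at -0.98 (SE 0.10). With LPS-IL-4, Dnajb9 was higher in every Pdap1-deficient culture, by 0.53 (SE 0.12, adjusted p = 0.0368), and with LPS-BAFF-TGFβ the groups overlapped at 0.04 (SE 0.19, adjusted p = 0.953). Dnajb11 (ERdj3), another J-domain partner of BiP, was 194, 200.4 and 208 CPM in control and 192, 169.7 and 203 CPM in Pdap1-deficient cells with LPS-IL-4, and 152, 133 and 127 CPM and 105, 106 and 118 CPM with LPS-BAFF-TGFβ. It was higher with LPS-IL-4, by 0.54 (SE 0.09, adjusted p = 0.00459) in control and 0.78 (SE 0.11, adjusted p = 0.00137) in Pdap1-deficient cells. Sdf2l1 (ENSMUSG00000022769, chr16:17130138-17132383, minus strand, GRCm38), which binds Dnajb11 in a complex with BiP, was 84.8, 87.4 and 105 CPM in control and 67.1, 51.8 and 59.4 CPM in Pdap1-deficient cells with LPS-IL-4, and 87.0, 51.0 and 51.6 CPM and 37.4, 29.9 and 28.6 CPM with LPS-BAFF-TGFβ. In both stimulations the 3 Pdap1-deficient values were below all control values, at log2 fold changes of -0.64 (SE 0.13, adjusted p = 0.0261) under LPS-IL-4 and -0.98 (SE 0.22, adjusted p = 0.176) under LPS-BAFF-TGFβ. The second value did not pass the test and was larger through the deep library of control mouse 1: without that library it was -0.68 (SE 0.13, adjusted p = 0.03), in a range of 0.00348 to 0.647 over the alternatives. By stimulation Sdf2l1 was 0.54 (SE 0.21, adjusted p = 0.132) in control and 0.89 (SE 0.14, adjusted p = 0.00343) in Pdap1-deficient cells. Sdf2l1 has 1108 bases of exon, the shortest member, and once gene length and GC content were offset, its genotype difference was -0.56 (adjusted p = 0.0545) with LPS-IL-4 and -0.76 (adjusted p = 0.0267) with LPS-BAFF-TGFβ, so that the first was no longer called and the second was.

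Hyou1 (GRP170), which exchanges the nucleotide of BiP, was 475, 438 and 494 CPM in control and 419, 374 and 402 CPM in Pdap1-deficient cells with LPS-IL-4, and 261, 272 and 248 CPM and 219, 226 and 217 CPM with LPS-BAFF-TGFβ. Manf, a small ER protein that binds BiP, was 167, 169.7 and 183 CPM in control and 166, 132 and 173 CPM in Pdap1-deficient cells with LPS-IL-4, and 111, 105 and 113 CPM and 91.3, 89.2 and 85.8 CPM with LPS-BAFF-TGFβ. Creld2, an ER protein with thioredoxin-like motifs, was 62.6, 67.5 and 80.9 CPM in control and 68.4, 62.5 and 63.8 CPM in Pdap1-deficient cells with LPS-IL-4, and 44.1, 35.9 and 37.9 CPM and 36.5, 36.5 and 34.8 CPM with LPS-BAFF-TGFβ. All 3 were higher in every LPS-IL-4 library of their genotype, by 0.84, 0.66 and 0.83 in control cells (adjusted p at most 0.00263) and 0.85, 0.82 and 0.85 in Pdap1-deficient cells (adjusted p at most 0.00187). None of them was called between genotypes, at log2 fold changes between -0.30 and -0.12. Ero1lb (ENSMUSG00000057069, chr13:12565874-12611396, plus strand, GRCm38), an oxidase that recharges the disulfide isomerases, was 171, 163 and 179 CPM in control and 211, 292 and 254 CPM in Pdap1-deficient cells with LPS-IL-4, and 86.1, 112 and 114 CPM and 104, 133 and 111 CPM with LPS-BAFF-TGFβ. It was higher with LPS-IL-4, by 0.72 (SE 0.12, adjusted p = 0.00471) in control and 1.12 (SE 0.14, adjusted p = 0.000934) in Pdap1-deficient cells. Within LPS-IL-4 it was higher in every Pdap1-deficient culture, by 0.55 (SE 0.12, adjusted p = 0.03). With LPS-BAFF-TGFβ the genotypes overlapped at 0.17 (SE 0.15, adjusted p = 0.675). Its relative Ero1l and Dnajc3, a J-domain protein, were called in none of the comparisons without a block, with CPM from 73.5 to 154 for Ero1l and from 174 to 246 for Dnajc3. With the mouse as a block Ero1l was called higher with LPS-IL-4 in Pdap1-deficient cells, at 0.24 (adjusted p = 0.0332).

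Many promoters of this group share a sequence. The ER stress response element (ERSE), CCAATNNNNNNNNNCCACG, is known to bind Atf6 together with the factor NF-Y. It was searched on both strands of the RefSeq promoter windows (GRCm38.p6, 250 bases before to 50 after a start), in which 32 of the 38 members could be matched; Atf6, Derl1, Sec61a1, Ssr2, Manf and Hyou1 could not. It stood in 9 of these 32 members (Calr, Canx, Creld2, Dnajc3, Ero1lb, Hsp90b1, Hspa5, Pdia6 and Syvn1), 8 of them chaperones or their partners. It stood in 39 of 32851 windows of the genome, 0.119%. The members were listed for known ER roles, for which several of these promoters were first studied, so this share is a description. The shorter ERSE-II, ATTGGNCCACG, was in Dnajb11 and Herpud1 and in 0.037% of all windows, where it overlaps no full ERSE of these 2 genes. The core TGACGTGG, which spliced Xbp1 is known to bind, was in none of the 32 and in 0.676% of all windows, and TGATGNAA, bound by Atf4 with a partner, was in Herpud1 and in 3.97% of all windows. A match is a string of letters and not a shown binding site. The promoters below are those of the 6 members with an ERSE that had the smallest p for the stimulation in control cells, shown because they carry the element and were higher with LPS-IL-4. Each is the 250 bases before the start, 5′ to 3′ on the strand of the gene, with the outer 5 bases of each end of the ERSE in capitals (CCAAT and CCACG, or CGTGG and ATTGG where the element lies on the other strand). They lie at chr10:86705445-86705694 (minus strand) for Hsp90b1, chr12:17266339-17266588 (plus strand) for Pdia6, chr2:34771840-34772089 (plus strand) for Hspa5, chr15:88819396-88819645 (plus strand) for Creld2, chr13:12565633-12565882 (plus strand) for Ero1lb and chr8:84846932-84847181 (minus strand) for Calr.
Hsp90b1: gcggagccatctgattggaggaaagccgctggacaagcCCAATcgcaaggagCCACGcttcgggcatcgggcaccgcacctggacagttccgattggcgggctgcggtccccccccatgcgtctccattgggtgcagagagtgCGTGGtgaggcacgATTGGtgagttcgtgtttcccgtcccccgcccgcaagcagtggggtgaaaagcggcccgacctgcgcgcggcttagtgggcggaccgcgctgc
Pdia6: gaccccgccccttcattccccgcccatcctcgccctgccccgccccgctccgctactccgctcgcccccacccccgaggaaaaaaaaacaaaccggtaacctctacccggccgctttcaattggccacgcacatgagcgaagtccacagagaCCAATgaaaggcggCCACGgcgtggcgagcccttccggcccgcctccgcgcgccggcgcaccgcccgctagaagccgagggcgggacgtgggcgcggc
Hspa5: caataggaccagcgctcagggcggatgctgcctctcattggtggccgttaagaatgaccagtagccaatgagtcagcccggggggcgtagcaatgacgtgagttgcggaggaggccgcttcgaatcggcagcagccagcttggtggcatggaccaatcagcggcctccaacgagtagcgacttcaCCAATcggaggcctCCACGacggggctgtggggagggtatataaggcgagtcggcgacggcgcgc
Creld2: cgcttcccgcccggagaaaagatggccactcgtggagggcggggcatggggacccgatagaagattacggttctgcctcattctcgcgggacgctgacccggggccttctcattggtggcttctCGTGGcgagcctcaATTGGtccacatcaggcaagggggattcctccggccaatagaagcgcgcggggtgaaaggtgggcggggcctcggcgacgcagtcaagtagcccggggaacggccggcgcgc
Ero1lb: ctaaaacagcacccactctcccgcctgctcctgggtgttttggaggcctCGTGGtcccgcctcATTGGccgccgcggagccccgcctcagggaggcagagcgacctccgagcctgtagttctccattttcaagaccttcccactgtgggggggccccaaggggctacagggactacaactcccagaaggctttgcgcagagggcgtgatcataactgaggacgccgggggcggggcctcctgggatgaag
Calr: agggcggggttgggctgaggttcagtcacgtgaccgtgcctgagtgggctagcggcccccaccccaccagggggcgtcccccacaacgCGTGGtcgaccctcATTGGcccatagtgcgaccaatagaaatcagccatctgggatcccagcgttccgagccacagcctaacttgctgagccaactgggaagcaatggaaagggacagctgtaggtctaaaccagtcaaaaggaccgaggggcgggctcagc

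In Hspa5 the element begins 65 bases before the start and in Pdia6 98 bases before it, both on the strand of the gene. Hsp90b1 holds 2 elements, beginning 212 and 107 bases before the start on opposite strands, and in Creld2, Ero1lb and Calr it begins 126, 201 and 162 bases before the start on the other strand. The 9 members with an ERSE had a median log2 fold change of LPS-IL-4 over LPS-BAFF-TGFβ of 0.62 in control and 0.74 in Pdap1-deficient cells, and the 23 matched members without one had 0.23 and 0.39. Of the 9, 7 and 6 were called higher, and of the 23, 8 and 12. Over all genes tested the shares called higher were 9.33% in control and 5.89% in Pdap1-deficient cells. Within the chaperones alone the medians in control cells were 0.66 for 8 genes with and 0.54 for 7 genes without the element, a smaller gap than over all members. For Pdap1 loss with LPS-IL-4 the medians were -0.10 with and 0.08 without an ERSE. These differences between members with and without the element were not tested.

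**Figure D4:**
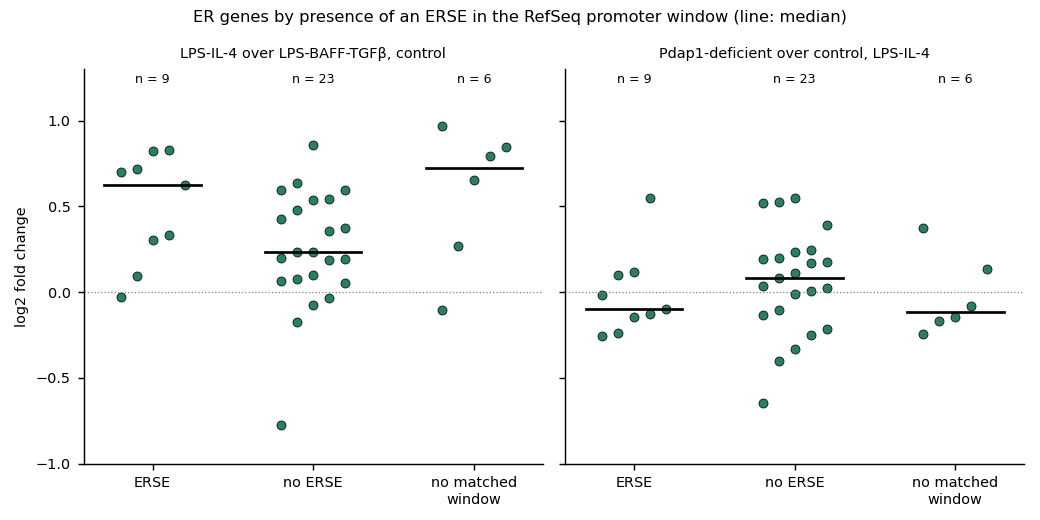
Log2 fold change (vertical axes) of LPS-IL-4 over LPS-BAFF-TGFβ in control cells (left) and of Pdap1-deficient over control cells with LPS-IL-4 (right) for the 38 ER genes, by whether their RefSeq promoter window holds an ERSE; each point is 1 gene and the line is the median. On the left the 9 genes with an ERSE have a median of 0.62 and the 23 without one 0.23; on the right the medians are -0.10 and 0.08.

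The degradation genes were the group whose summed level separated the genotypes in both stimulations. Their CPM summed to 1006, 972 and 990 in control and 1237, 1169 and 1255 in Pdap1-deficient cells with LPS-IL-4, and to 818, 851 and 826 and to 908, 928 and 909 with LPS-BAFF-TGFβ. Within each stimulation every Pdap1-deficient library was above every control library, with ratios of means of 1.23 and 1.10. Herpud1 alone had means of 121.7 CPM in control and 173.0 CPM in Pdap1-deficient cells with LPS-BAFF-TGFβ. The group's mean sums there were 831.5 and 914.7 CPM, so much of that separation lay in 1 gene. The sums separated the stimulations as well, every LPS-IL-4 library being above every LPS-BAFF-TGFβ library. The ratios of means by stimulation were 1.19 in control and 1.33 in Pdap1-deficient cells. For Pdap1 loss, 13 further degradation genes outside the members had median log2 fold changes of 0.003 and -0.004. None of the 9 genes was called between genotypes in either stimulation, and the median log2 fold changes were 0.23 and 0.08. Over all genes tested, 2.79% were called higher and 2.12% lower with LPS-IL-4, and 0.455% and 0.0071% with LPS-BAFF-TGFβ. With LPS-IL-4, 8 of 9 values were above 0 and 6 genes did not overlap between genotypes, and with LPS-BAFF-TGFβ 7 were above 0 and 2 did not overlap. Of all genes tested, 15.5% and 9.55% were higher without overlap in the 2 stimulations. Without Pdap1-deficient mouse 2 with LPS-IL-4, 5 of the 9 were called higher, in a fit that also called more genes over all genes tested, as given above.

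**Figure D5:**
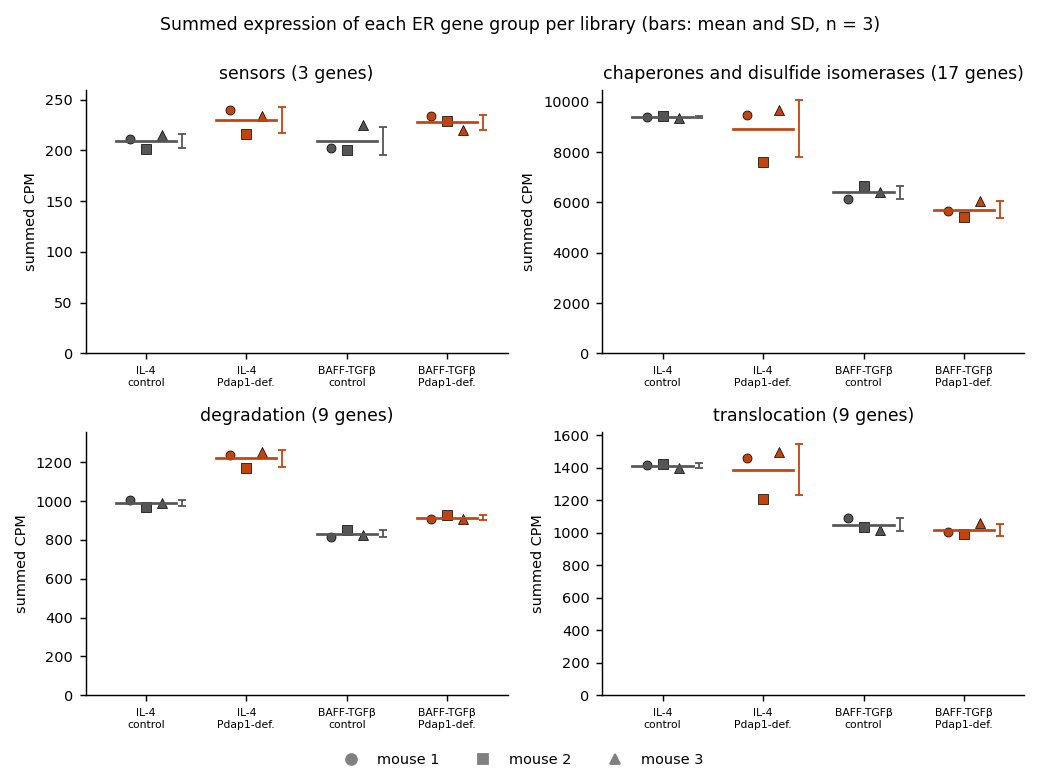
Summed CPM (vertical axes, from 0) of the sensors, the chaperones and disulfide isomerases, the degradation genes and the translocation genes in the 12 libraries, by group, with 1 symbol per mouse number; horizontal bars give the mean and vertical bars the SD of 3 libraries. The chaperone and translocation sums are higher with LPS-IL-4, where Pdap1-deficient mouse 2 is the lowest. The degradation sum is also higher with LPS-IL-4, and it is higher in Pdap1-deficient cells of both stimulations. With LPS-BAFF-TGFβ the chaperone sum is lower in every Pdap1-deficient library.

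Herpud1 (ENSMUSG00000031770, chr8:94386438-94395377, plus strand, GRCm38), a membrane protein that organises the Hrd1 degradation complex, was 131, 143 and 144 CPM in control and 251, 152 and 201 CPM in Pdap1-deficient cells with LPS-IL-4, and 124, 126 and 116 CPM and 183, 161 and 176 CPM with LPS-BAFF-TGFβ. It had the highest level per length in the group, and every Pdap1-deficient culture was above every control culture of its stimulation. The log2 fold changes of 0.52 (SE 0.17, adjusted p = 0.0991) and 0.51 (SE 0.10, adjusted p = 0.103) missed the threshold. They passed it without the LPS-IL-4 library of Pdap1-deficient mouse 2, at 0.70 (adjusted p = 0.000415), and without the deep library with LPS-BAFF-TGFβ, at 0.52 (adjusted p = 0.032). Both also passed in DESeq2's Wald test with no library left out, and that of LPS-IL-4 passed without the filter on low counts. Over the alternatives the adjusted p ran from 0.000415 to 0.29 in the former and from 0.032 to 0.424 in the latter. Herpud1 is also the member whose window holds both an ERSE-II and TGATGNAA.

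Derl1, a membrane protein through which misfolded proteins leave the ER, was 118, 112 and 116 CPM in control and 161, 137 and 153 CPM in Pdap1-deficient cells with LPS-IL-4, and 58.0, 62.3 and 56.5 CPM and 66.8, 69.2 and 70.2 CPM with LPS-BAFF-TGFβ. It had the largest stimulation difference among the members in both genotypes, at 0.97 (SE 0.08, adjusted p = 0.000115) in control and 1.13 (SE 0.10, adjusted p = 0.000107) in Pdap1-deficient cells. For Pdap1 loss it gave 0.37 (SE 0.10, adjusted p = 0.0652) and 0.23 (SE 0.11, adjusted p = 0.488), without overlap and without a call. With LPS-IL-4 Derl1 was called higher without the filter, in the fit of all 12 libraries and on thinned counts. Derl2, its relative, was 74.1, 76.4 and 71.3 CPM in control and 71.6, 76.3 and 74.0 CPM in Pdap1-deficient cells with LPS-IL-4, and 56.1, 60.5 and 54.7 CPM and 52.2, 63.8 and 61.5 CPM with LPS-BAFF-TGFβ. It was called higher with LPS-IL-4 in control cells, at 0.37 (SE 0.09, adjusted p = 0.0209), where the call was lost with the mouse as a block. In Pdap1-deficient cells it gave 0.32 (SE 0.11, adjusted p = 0.108) and was called with the block (adjusted p = 0.0086).

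Edem1, which trims mannose from misfolded glycoproteins, was 211, 200.5 and 199 CPM in control and 238, 269.8 and 300.5 CPM in Pdap1-deficient cells with LPS-IL-4, and 165, 184 and 182 CPM and 174, 197 and 189 CPM with LPS-BAFF-TGFβ. With LPS-IL-4 every Pdap1-deficient culture was above every control culture, at 0.39 (SE 0.11, adjusted p = 0.0638), which missed the threshold. Edem1 was called there by DESeq2's Wald test, without the filter, in the fit of all 12 libraries and on thinned counts. The stimulation difference was 0.20 (SE 0.09, adjusted p = 0.157) in control and 0.53 (SE 0.12, adjusted p = 0.0159) in Pdap1-deficient cells. Sel1l, the adaptor of the ubiquitin ligase Hrd1, was 166, 155 and 163 CPM in control and 192, 172 and 186 CPM in Pdap1-deficient cells with LPS-IL-4, and 126, 144 and 142 CPM and 141, 141 and 139.9 CPM with LPS-BAFF-TGFβ. It was called higher with LPS-IL-4 in Pdap1-deficient cells, at 0.38 (SE 0.09, adjusted p = 0.0267), and in control cells it gave 0.23 (SE 0.09, adjusted p = 0.12). Syvn1, the gene of Hrd1, was between 74.4 and 121 CPM, and Edem2, Edem3 and the lectin Os9 were called in no comparison without a block either, with log2 fold changes between -0.04 and 0.39 over the 4 comparisons of 2 groups. With the mouse as a block Edem3 (0.39, adjusted p = 0.000673) and Os9 (0.25, adjusted p = 0.0288) were called higher with LPS-IL-4 in Pdap1-deficient cells.

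Of the translocation genes, the channel subunits Sec61a1 and Sec61g and the TRAP subunits Ssr1 and Ssr3 were called, all of them by stimulation. Their CPM summed to 1419, 1424 and 1398 in control and 1460, 1207 and 1500 in Pdap1-deficient cells with LPS-IL-4, and to 1093, 1037 and 1016 and to 1006, 991 and 1058 with LPS-BAFF-TGFβ. The ratio of means was 1.35 by stimulation in control and 1.36 in Pdap1-deficient cells, and 0.983 and 0.971 by genotype. Of the 9 genes, 3 were called higher with LPS-IL-4 in control and 4 in Pdap1-deficient cells, and none was called between genotypes, with medians of -0.08 and -0.13. Over all genes tested, 9.33% and 5.89% were called higher with LPS-IL-4. For Pdap1 loss the all-gene shares were 2.79% higher and 2.12% lower with LPS-IL-4, and 0.455% and 0.0071% with LPS-BAFF-TGFβ. Sec61a1, the pore of the channel, was 221, 215 and 235 CPM in control and 215, 176 and 209.5 CPM in Pdap1-deficient cells with LPS-IL-4, and 138, 126 and 123 CPM and 126, 122 and 119 CPM with LPS-BAFF-TGFβ. It was higher with LPS-IL-4 without overlap, by 0.80 (SE 0.09, adjusted p = 0.000399) in control and 0.71 (SE 0.11, adjusted p = 0.00215) in Pdap1-deficient cells.

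Ssr1, Ssr2, Ssr3 and Ssr4 encode the TRAP complex, which sits beside the channel. Ssr3, with the highest level per length of the group, was 449, 432 and 406 CPM in control and 478, 384 and 508 CPM in Pdap1-deficient cells with LPS-IL-4, and 261, 292 and 272 CPM and 299, 300.0 and 324 CPM with LPS-BAFF-TGFβ. Ssr1 was 341, 356 and 341 CPM in control and 340.4, 272 and 341 CPM in Pdap1-deficient cells with LPS-IL-4, and 262, 248 and 234 CPM and 242, 231 and 244 CPM with LPS-BAFF-TGFβ. Both were higher in every LPS-IL-4 library of their genotype, by 0.64 (SE 0.09, adjusted p = 0.0018) and 0.48 (SE 0.08, adjusted p = 0.00505) in control and 0.56 (SE 0.12, adjusted p = 0.0153) and 0.41 (SE 0.11, adjusted p = 0.0471) in Pdap1-deficient cells. Ssr2 was 90.4, 83.8 and 89.6 CPM in control and 95.2, 69.2 and 86.2 CPM in Pdap1-deficient cells with LPS-IL-4, and 68.8, 72.8 and 77.6 CPM and 66.5, 63.4 and 69.8 CPM with LPS-BAFF-TGFβ. Its stimulation difference did not pass the test, at 0.27 (SE 0.09, adjusted p = 0.0713) and 0.32 (SE 0.13, adjusted p = 0.16), and with the mouse as a block the second was called (adjusted p = 0.0131). Ssr4 was between 43.7 and 84.3 CPM with no call.

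The values of the small channel subunit Sec61b rested on the deep library. Sec61b was 80.5, 23.1 and 17.3 CPM in control cells with LPS-BAFF-TGFβ, where the deep library of mouse 1 was far above the others, and between 21.2 and 40.9 CPM in the groups other than this one. With it the log2 fold change for LPS-IL-4 over LPS-BAFF-TGFβ in control cells was -0.18 (SE 0.61), and without it 0.84 (SE 0.14), which was called. For Pdap1 loss with LPS-BAFF-TGFβ the same step moved it from -0.71 to 0.30, neither called. Sec61g was 11.0, 11.6 and 10.6 CPM in control and 10.6, 9.73 and 14.2 CPM in Pdap1-deficient cells with LPS-IL-4, and 14.9, 10.7 and 4.99 CPM and 5.0, 4.34 and 7.03 CPM with LPS-BAFF-TGFβ. It had the lowest counts of the members and was called higher with LPS-IL-4 in Pdap1-deficient cells, at 1.05 (SE 0.24, adjusted p = 0.0222). Sec62 and Sec63, which serve import after translation, were called in no comparison without a block, with log2 fold changes between -0.15 and 0.35. The last of these, the stimulation in Pdap1-deficient cells, was called for Sec63 with the block (adjusted p = 0.00181).

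Set against Atf4, all 38 members had a smaller log2 fold change for Pdap1 loss in both stimulations. The medians over all genes tested, 0.02 and 0.01, also lay under Atf4, so this is not particular to the members. The 95% interval of Atf4 ran from 0.71 to 1.37 in LPS-IL-4 cultures and from 0.90 to 1.49 in LPS-BAFF-TGFβ cultures. With LPS-IL-4 the upper bound of 34 of 38 members lay under the lower bound of Atf4, the other members being Dnajb9, Ern1, Ero1lb and Herpud1. With LPS-BAFF-TGFβ this held for 37, and the exception was Sec61b, whose interval was wide. The intervals of 26 and 30 members included 0. These are intervals of single genes fitted on the same libraries, and they were not corrected for their number. The matching shares over all genes tested are not given here, so the counts are descriptions.

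Within a library, the ratio of a member's CPM to that of Atf4 does not depend on the scaling of the library. It was lower in every Pdap1-deficient than in every control culture for 36 of 38 members under LPS-IL-4 and for all 38 under LPS-BAFF-TGFβ, and the median difference of log2 ratios (Pdap1-deficient minus control) was -1.01 and -1.23. Since all ratios share the same denominator, they are not separate observations of the members. Atf4 was higher in every Pdap1-deficient culture, so a gene that does not change also gives a lower ratio. A lower ratio is therefore the rise of Atf4 seen again, and its share over all genes was not computed. By group, the median difference with LPS-IL-4 was -0.79 for the degradation genes, -0.89 for the sensors, -1.11 for the translocation genes and -1.14 for the chaperones and disulfide isomerases, and with LPS-BAFF-TGFβ it was -1.10, -0.98, -1.32 and -1.31.

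Whether the genotype effect differed between the stimulations was tested over all 12 libraries. None of the 38 members passed in edgeR's quasi-likelihood test, as did 0% of the 15794 genes tested, nor in DESeq2's Wald test. At an unadjusted p under 0.05 there were 3 members and 755 of all genes. The genes called in LPS-IL-4 cultures alone are therefore not shown to differ: the difference of the effects was 0.50 (SE 0.23) for Dnajb9, 0.40 (SE 0.20) for Ero1lb, 0.28 (SE 0.19) for Ern1 and 0.36 (SE 0.28) for Sdf2l1, each with an adjusted p of 0.983.

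Among further genes of the same pathways too, fewer were called by genotype than by stimulation: of 55 tested outside the members, Atf4 and Xbp1, Pdap1 loss gave 2 higher and 1 lower in LPS-IL-4 cultures and none in the others. LPS-IL-4 gave 17 higher in control and 13 in Pdap1-deficient cells. For Pdap1 loss the shares of all genes tested were 2.79% higher and 2.12% lower with LPS-IL-4, and 0.455% and 0.0071% with LPS-BAFF-TGFβ. For the stimulation 9.33% of all genes tested were higher in control and 5.89% in Pdap1-deficient cells. Of 7 genes of ER stress signalling, Pdap1 loss with LPS-IL-4 gave 2 higher, Atf4 and Ddit3 (a transcription factor induced by Atf4; log2 fold change 0.72, SE 0.18, adjusted p = 0.0454), and with LPS-BAFF-TGFβ 1, Atf4. With LPS-IL-4 over LPS-BAFF-TGFβ 3 of the 7 were higher in control (Xbp1, the eIF2α phosphatase subunit Ppp1r15a and Atf4) and 4 in Pdap1-deficient cells (Xbp1, Ppp1r15a, Eif2ak3 and Ddit3). Of 13 further degradation genes 1 was higher with Pdap1 loss in LPS-IL-4, the lectin Erlec1 (0.92, SE 0.17, adjusted p = 0.0176), and of 14 tested genes of folding and glycan trimming 1 was lower, the glucosidase Mogs (-0.76, SE 0.15, adjusted p = 0.0219). None of 23 genes of targeting, signal peptidase and glycosylation was called between genotypes, whereas 9 in control and 5 in Pdap1-deficient cells were higher with LPS-IL-4, with the smallest p for Ostc (0.74) in control and Rpn1 (0.62) in Pdap1-deficient cells, both of the oligosaccharyltransferase. None of these further genes other than Atf4 was called for Pdap1 loss with LPS-BAFF-TGFβ, and none of them was called lower with LPS-IL-4.

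The Atf4 target list, 29 genes known as its targets and set down with earlier results of these data known, moved with genotype. Of 29 tested, 22 were higher with Pdap1 loss in LPS-IL-4 (median log2 fold change 1.34), with the smallest p for Chac1 (3.19), Aldh1l2 (2.79) and Pck2 (2.45), and of 27 tested 18 were higher in LPS-BAFF-TGFβ (median 1.20), with the smallest p for Asns (3.84), Chac1 (4.69) and Gpt2 (3.48). None of them was lower. Over the 38 ER genes the same medians were 0.02 and -0.05.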

How the data were processed

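RNA was measured in 12 libraries of splenic B cell cultures, 3 mice in each of 4 groups taken from the labels (class switch and genotype). Per the labels and the methods of the study, ribosomal RNA was depleted, reads were trimmed (the submitters' processing notes name Trim Galore 0.6.1), mapped to GRCm38 with STAR 2.6 and counted per Ensembl gene with HTSeq 0.9.1. The labels name a stranded mRNA kit and the methods a stranded total RNA kit. The annotation release and the strand setting of the counting are not given in the sources used here, so reads of overlapping antisense genes may be shared. The authors deposited raw counts, used for all tests, and a second table, a signal that is the deposited count over 1 size factor a library, used only to check the first. No library was a copy of another in its group.

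Symbols, positions and union exon lengths are from GENCODE M21 (GRCm38), which named 55450 of 55536 features, and promoter windows are from RefSeq. The 38 members and all lists were chosen with earlier results of these data known, so counts in lists are descriptions.

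Genes were filtered with filterByExpr, scaled with TMM and tested with the robust quasi-likelihood test of edgeR 4.0.16 (R 4.3.3), with Benjamini-Hochberg adjustment, within each stimulation for genotype, within each genotype for stimulation and over all 12 libraries for their interaction. Alternatives were DESeq2 1.42.0 (Wald test), its size factors in edgeR, no filter, each library left out, a replicate block, 1 fit of all libraries, thinning to 4579793 counts, and a length and GC offset (splines with 4 df) alone and with the block. By the series design the 2 cultures of a mouse share its number. The deviations of the 2 cultures from their group means correlated at 0.579, 0.622 and 0.293 in Pdap1-deficient mice and at -0.181, 0.341 and -0.023 in control mice.

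Genes named are all members, with values in every library for the sensors, for members called in any comparison and for the 2 with the highest level per length in each group, except for Sec61b, given for its deep library, and up to 3 called genes of each further list. Tables and figures were made with Python 3.11.15, pandas 2.3.3 and matplotlib 3.10.9.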

Additional observations from a re-analysis of the deposited data

How the results depend on the processing

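For Pdap1 loss with LPS-IL-4, the 4 members called became 6 with DESeq2's Wald test, 7 without the filter and 5 on thinned counts. They became 2 with the replicate block, 1 with the length and GC offset and 0 with both. With 1 library left out they were between 0 and 11 (0 without control mouse 1, 2 or 3 or without Pdap1-deficient mouse 3, and 11 without Pdap1-deficient mouse 2). For Pdap1 loss with LPS-BAFF-TGFβ, where no member was called, DESeq2's Wald test called 2, no filter 1, the block 1, 1 fit of all libraries 1, the length and GC offset 1 and the offset with the block 1, and between 0 and 2 with 1 library left out (2 without control mouse 1). For most of these alternatives, in either stimulation, calls over all genes are not given, so the counts have no share beside them. For the stimulation the count was between 15 and 23 of 38 in control cells (20 as reported) and between 11 and 27 in Pdap1-deficient cells (22 as reported) with 1 library left out, and it stayed within 1.5 times under the other alternatives, where the block gave 16 and 30. For the interaction it was 0 under every alternative, also with each library left out. The genotypes share only a number, since mouse 1 of one genotype is a different animal from mouse 1 of the other: same-numbered libraries correlated between -0.205 and 0.103. Why a call between genotypes was lost under the block was not tested. The sensors, Atf4 and Xbp1 in every comparison and the other members in the comparisons where they were called gave 963 values under an alternative. Of these, 822 kept their direction and side of the threshold, 123 fell short of it, 6 passed it newly and 12, none of them called, changed sign; the cause was not tested. Members not called as reported could be called under an alternative too, as the calls without Pdap1-deficient mouse 2 and with the block show. With LPS-IL-4 the median of all genes moved from 0.02 to -0.05 with the length and GC offset and to 0.08 without the filter. Intervals are 95% intervals of the log2 fold change between groups of 3 libraries, with a dispersion moderated across genes. Those of the stimulation and of the interaction do not account for the 2 libraries that come from each mouse.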
